A study of Mus musculus with 8 samples.

Results

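Isoform usage was compared between mouse livers 72 h after partial hepatectomy and sham-operated livers. Isoform usage here is the share of a gene's summed signal that each of its annotated transcripts holds, in percent. Genes were included when at least 2 isoforms were listed and the summed signal reached 10 in each of the 8 libraries. These conditions gave 7926 genes of 34465 listed (15110 of which had at least 2 isoforms), with 48057 of 96792 isoforms. The genes were thus selected on their summed signal, and shares were not used to choose them. Just inside the limit lay Trpv2, A930001N09Rik and Robo1, with lowest summed signals of 10.0009, 10.0057 and 10.0265. Just outside lay Lair1, Cpt1b and Pogk, at 9.99268, 9.97422 and 9.9685.

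RNA was sequenced from whole liver of mice of the strain 129S4/SvJae/FVB aged 3 months. All 4 groups carried b-PDGFR fl/fl, that is floxed alleles of Pdgfrb, a receptor tyrosine kinase for platelet-derived growth factor, in the controls as well. The groups were GFAP-Cre neg with sham operation, GFAP-Cre pos with sham operation, GFAP-Cre neg at 72 h after partial hepatectomy and GFAP-Cre pos at 72 h after partial hepatectomy, with 2 libraries each. They are called Cre-negative and Cre-positive sham and hepatectomy below. The series title places the deletion in hepatic stellate cells, which are a minor cell type of whole liver. The labels do not say that each library came from its own animal, so p-values cover only the spread among these samples, which may be technical.

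One gene can give several transcripts through alternative start sites, alternative splicing and alternative ends. The choice is set by splicing regulators, among them the SR proteins and the hnRNPs, and it can change the encoded protein or the stability of the RNA. After partial hepatectomy the remaining hepatocytes re-enter the cell cycle while they continue to carry out the metabolic work of the organ, and changes of splicing are a known feature of liver growth. Isoform names are those of the deposited table. Names whose number begins with 0 belong to manually curated transcripts and those beginning with 2 to automatically annotated ones, and what each isoform encodes was not analysed here.

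The table gives a normalized signal, not read counts, and the depth of each library is unknown. Values within a library summed to between 8617660 and 11583800. Pdgfrb, the targeted gene, had a signal of 49.8 and 63.3 in Cre-negative sham, 59.4 and 46.0 in Cre-positive sham, 123 and 70.5 in Cre-negative hepatectomy and 63.1 and 99.9 in Cre-positive hepatectomy. The Cre-positive and Cre-negative values overlapped, and whole liver RNA without exon values does not check the deletion. The hepatocyte markers summed to 184000 to 259000 in 7 of 8 libraries and to 341000 in Cre-negative hepatectomy replicate 1. Alb held 227200 of that last sum but was listed at 0 in the other 7 libraries. The sum of Cre-negative hepatectomy replicate 1 is therefore not comparable with the others and does not show a higher hepatocyte signal. Serpina1c was under 1 in at least 1 library. The summed signal of 5 cell division markers was 47.2 to 74.5 in sham and 870 to 2880 in hepatectomy livers. Of the erythroid markers, the globins Hba-a1 and Hbb-b1 had signals of 905 to 2323 and 882 to 1892 in sham and of 3377 to 17990 and 2506 to 14310 in hepatectomy livers, with no overlap. Alas2, the first enzyme of erythroid heme synthesis, did not rise with them, at 1563 to 1990 in sham and 696 to 1808 after hepatectomy. These ranges overlapped: the 1808 was in Cre-positive hepatectomy replicate 2, which also had the highest globin signals. The 6 stellate cell markers summed to 2070 to 2890 in sham and 1270 to 1960 in hepatectomy livers. Pdgfrb, which is 1 of these 6, did not fall with the sum. Its signal was 46.0 to 63.3 in sham and 63.1 to 123 after hepatectomy, so the sum does not stand for each marker. For 6 sinusoidal endothelial markers the sums were 2400 to 3230 and 1190 to 2550, and for 6 of 7 macrophage markers found in the table they were 1220 to 1950 and 1500 to 4000. The 5 cholangiocyte markers summed to 399 to 505 in sham and to 497 to 1750 after hepatectomy, where Cre-positive replicate 1 was highest. The 4 neutrophil markers summed to 97.6 to 600 and 199 to 431, with Ly6g and Mpo under 1 in at least 1 library, and the 5 T and B cell markers, each under 1 in at least 1 library, to 5.75 to 7.63 and 2.26 to 25.2. In whole liver, fewer cells of a type and less RNA per cell cannot be told apart, and a share mixes the isoforms of all cell types. The part of cell composition in the share differences was not tested.

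The typical member gene listed 5 isoforms (median), of which 2 (median) held a mean share of 5% or more. There were 1557 genes with 2 isoforms and 1258 with 10 or more. In 4631 genes (58.4%) the same isoform led in all 8 libraries. A further 25 gene names, such as those of small RNA families, covered several loci and held 1482 of the isoforms, so that their shares are not isoform choices. Of those isoforms 98 entered the test.

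Libraries did not stand equally far apart, and this preceded every comparison. The distance between 2 libraries was taken as the sum of absolute share differences of a gene divided by 2, which is 0% for identical usage and can reach its maximum where no isoform is shared. Its median over the 7926 genes was 5.95% to 7.77% between sham libraries. Cre-negative hepatectomy replicate 1 lay 21.3% to 24% from the sham libraries and replicate 2 lay 13.1% to 15.1% from them. Cre-positive hepatectomy replicate 2 lay at 10.3% to 11.8%. Cre-positive hepatectomy replicate 1 lay at 6.81% to 8.03% from the sham libraries, which overlaps the distances among sham libraries. The 2 Cre-negative hepatectomy libraries were 13.5% from each other and the 2 Cre-positive ones 9.18%. Across genotypes, Cre-negative hepatectomy replicate 1 lay 24% and 27.7% from Cre-positive hepatectomy replicates 1 and 2. For Cre-negative hepatectomy replicate 2 these distances were 15.1% and 18.1%. The Cre-negative hepatectomy libraries were thus no closer to the Cre-positive hepatectomy libraries than to the sham libraries.

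**Figure D1:**
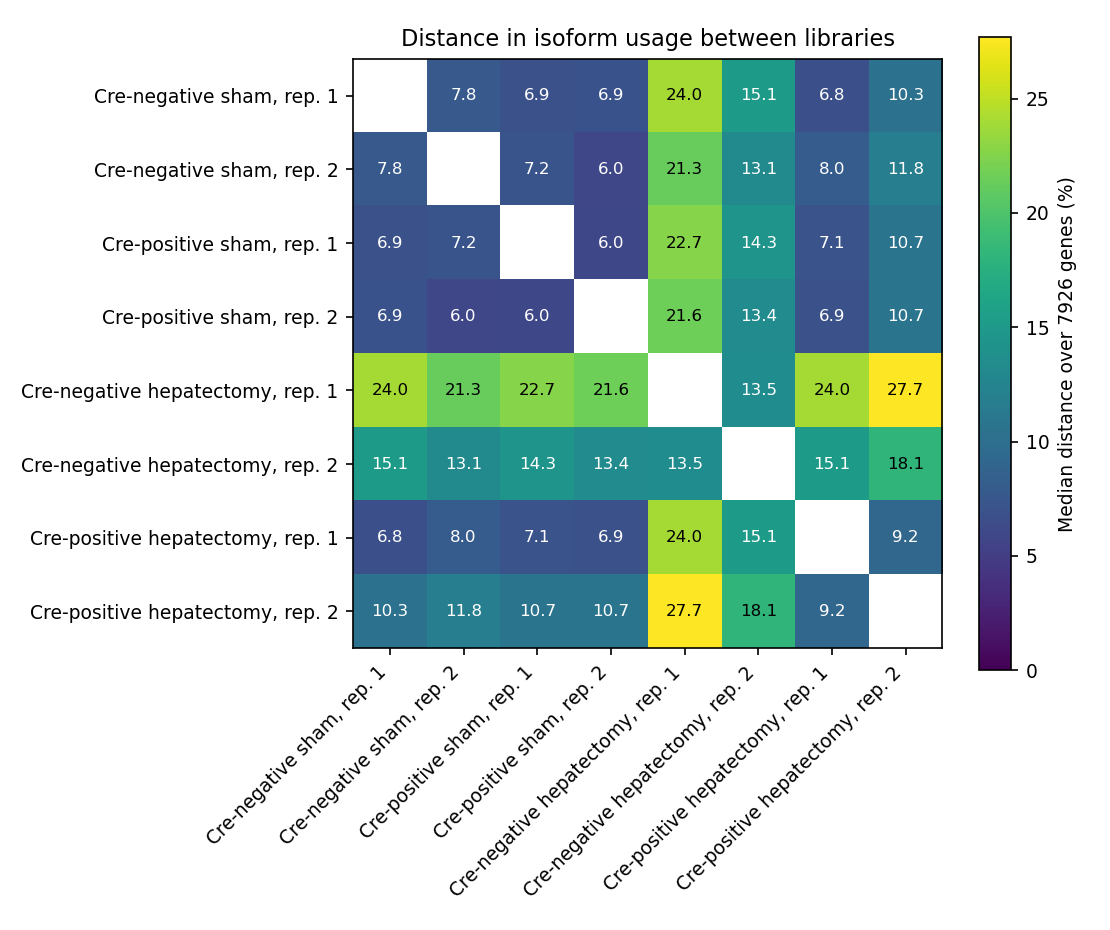
Median distance in isoform usage over the member genes (colour and printed value, in percent) for each pair of the 8 libraries on both axes. Pairs of sham libraries lie at 5.95% to 7.77%, and the row of Cre-negative hepatectomy replicate 1 holds the largest values against sham, 21.3% to 24%.

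The order of the libraries was not confined to weakly expressed genes. For the 902 genes with a mean summed signal of 1000 or more, the median distance to the sham mean (without the library itself) was 2.18% to 3.51% for the sham libraries. In the same genes it was 21.2% and 10.5% for Cre-negative hepatectomy replicates 1 and 2, and 2.71% and 4.78% for Cre-positive hepatectomy replicates 1 and 2. A distance of 50% or more was found in 0.479% to 1.06% of the member genes in the sham libraries. After hepatectomy the share was 13.2% and 3.18% in the Cre-negative, then 0.328% and 2.84% in the Cre-positive libraries.

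The Cre-negative hepatectomy libraries also differed in isoforms that were close to absent. In Cre-negative hepatectomy replicate 1, 728 isoforms had a share under 0.5% while all 7 other libraries gave 5% or more. The corresponding counts were 21 to 52 in the sham libraries, 85 in Cre-negative hepatectomy replicate 2, and 14 and 108 in the Cre-positive hepatectomy libraries. A set of 314 isoforms in 311 genes was under 0.5% in both Cre-negative hepatectomy libraries and at 5% or more in the other 6. No other pair of libraries shared more than 15 such isoforms. In the opposite direction, 67 isoforms were at 5% or more in these 2 libraries and under 0.5% in the other 6, against 0 to 6 for the 27 other pairs.

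**Figure D2:**
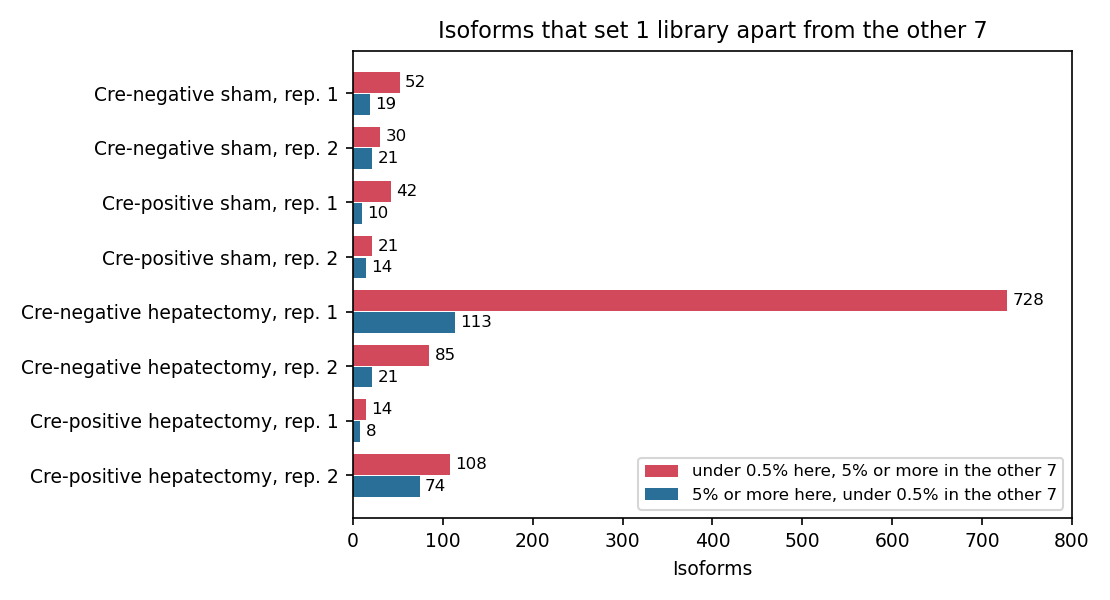
Number of isoforms (horizontal axis) for each library (vertical axis) with a share under 0.5% there and 5% or more in the other 7 (red), or the reverse (blue). Cre-negative hepatectomy replicate 1 has 728 and 113, and no sham library exceeds 52 and 21.

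The number of very small values differed between the same libraries. Values above 0 and under 1e-06 numbered 3262 to 5574 in the sham libraries. After hepatectomy they numbered 33 and 1526 for Cre-negative, 8581 and 586 for Cre-positive livers. Isoforms listed at exactly 0 numbered 26116 to 28696 in sham, 32598 and 30462 in Cre-negative hepatectomy, and 23067 and 31658 in Cre-positive hepatectomy libraries. The part of these differences in the shares below was not tested.

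Concentration of usage on the leading isoform overlapped between the operations. The median share of the leading isoform was 70.8% to 71.7% in the 4 sham libraries. After hepatectomy it was 76.4% and 73.7% in the Cre-negative, then 71.8% and 69.5% in the Cre-positive libraries. The groups overlapped, with means of 71.4% ± 0.424 (SD, n = 4) in sham and 72.9% ± 2.91 (SD, n = 4) in hepatectomy livers. Their difference of 1.43 percentage points had p = 0.371 in the exact permutation test (two-sided, smallest possible p 0.0286), and it was 0.246 points without Cre-negative hepatectomy replicate 1. Without Cre-positive hepatectomy replicate 2 it was 2.54 points, with an exact permutation p of 0.0571, the smallest that 4 against 3 libraries allow. The effective number of isoforms, the exponential of the Shannon entropy of the shares, was 2.036 ± 0.0152 in sham and 2.00 ± 0.0773 in hepatectomy libraries (SD, n = 4 each, exact permutation p = 0.457). Its difference of -0.0358 became -0.00463 and -0.0627 when the same libraries were left out in turn.

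Replacement of the leading isoform was counted in the 6492 genes in which the 4 sham libraries shared it. Another isoform led in 1318 and 626 of these genes in Cre-negative hepatectomy replicates 1 and 2. In 421 genes the same other isoform led in both. In Cre-positive hepatectomy replicates 1 and 2 the counts were 185 and 579, with the same other isoform in both for 101 genes. A change to 1 and the same other isoform in all 4 hepatectomy libraries was seen in 7 genes (0.0883% of the member genes). They were Evc2, Cep250, Cyp4a31, 4833439L19Rik, Utp23, Ubxn6 and 1600014C10Rik.

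Shares were tested for 21013 isoforms of 6933 member genes. The other 993 genes had no isoform with a mean share between 5% and 95%, and 27044 isoforms lay outside that range. That mean was taken over all libraries, those compared included. Lpin1-201, Eif4a2-006, Tial1-005, Map3k7-002, Gripap1-201, H2-T24-201 and Ssrp1-202, among others, were under 5% outside the Cre-negative hepatectomy libraries. They entered the test only through their high shares there, and their adjusted p-values do not allow for that. Without the share filter, 40 of the 41 named isoforms called averaged kept the call. Those 41 were named for their calls in the same libraries, so this is not an independent check of them. The test was limma on the log2 ratio of an isoform to the rest of its gene, with Benjamini-Hochberg adjustment over all 29232 isoforms tested in the series and a threshold of 0.05. All adjusted p-values below are from it. The test takes the spread as equal in all groups, although the distances between replicates differed. Its p-values can therefore be too small where a group with a larger spread is compared. Compared simply as 4 hepatectomy against 4 sham libraries, with 1 mean for each operation, 0 member isoforms passed, while 1176 had an unadjusted p under 0.05. When each of the 4 groups had its own mean and the response was averaged over genotypes, 216 isoforms in 193 genes passed, 59 with a higher and 157 with a lower share after hepatectomy. This was 1.03% of the member isoforms tested, beside 0.811% of all isoforms tested (0.222% higher and 0.588% lower), and 3682 had an unadjusted p under 0.05.

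These 216 calls rested on few libraries. Leaving out any one of the 4 sham libraries, or Cre-positive hepatectomy replicate 2, left 0 calls, and leaving out Cre-positive hepatectomy replicate 1 left 30. Of the Cre-negative hepatectomy libraries, omitting replicate 1 gave 453 calls and omitting replicate 2 gave 4221. Where 1 library of a group was left, it was assumed to vary like the other groups. Without both Cre-negative hepatectomy libraries 0 isoforms passed (2162 at an unadjusted p under 0.05), and without both Cre-positive ones 2138 passed. Of the 216, 210 changed more in Cre-negative livers, 120 changed in the same direction in both genotypes, and 135 had a mean share under 0.5% in the Cre-negative hepatectomy libraries. In 52 both Cre-positive hepatectomy shares lay within the range of the sham libraries. Shares of the 4 hepatectomy and 4 sham libraries did not overlap for 42 of the 216, in 39 genes, with 26 lower and 16 higher. Among all member isoforms tested, 1089 (5.18%) did not overlap, beside 4.89% of all isoforms tested (2.21% higher and 2.68% lower).

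The 25 genes with the largest difference of mean share among those 39 are described next, and library values are given in the order Cre-negative replicates 1 and 2, then Cre-positive replicates 1 and 2. Their shares were higher after hepatectomy in 11 and lower in 14, and the choice of isoforms without overlap fixes the same sign in both genotypes. In 12 the mean share moved by 10 percentage points or more in each genotype. In 9 the response differed between genotypes by the test of that difference. Taken within one genotype, 21 passed in Cre-negative livers and 0 in Cre-positive livers.

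**Figure D3:**
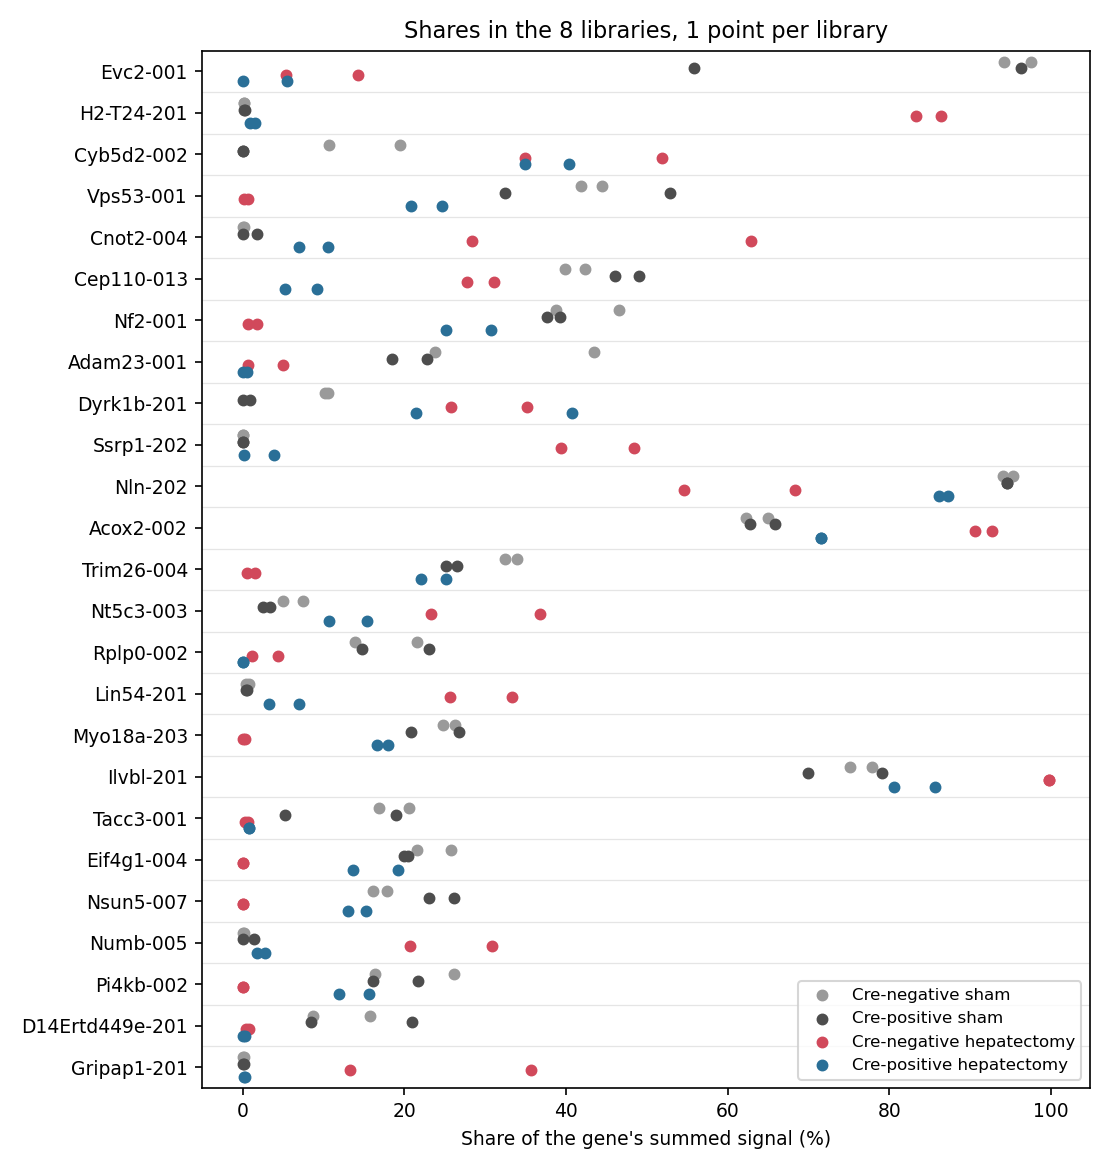
Share of the gene's summed signal in percent (horizontal axis) for 25 isoforms (vertical axis), 1 point per library, coloured by group. For Evc2-001 all hepatectomy libraries lie at 14.3% or lower and all sham libraries at 55.8% or higher, whereas for H2-T24-201 only the Cre-negative hepatectomy libraries, at 83.3% and 86.4%, lie far from the rest.

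Evc2, a protein of the base of the primary cilium that acts in Hedgehog signalling, showed the largest difference. Evc2-001 held 94.2%, 97.5%, 96.3% and 55.8% in the sham libraries and 14.3%, 5.38%, 0.0158% and 5.49% in the hepatectomy libraries. Evc2-201 held 2.87%, 2.47%, 2.24% and 44.2% in sham and 83.5%, 92.8%, 99.5% and 84.8% after hepatectomy. All 4 hepatectomy libraries thus lay on the other side of all 4 sham libraries for both isoforms, and Cre-positive sham replicate 2 stood between. The log2 ratio of Evc2-001 fell by 5.80 ± 0.75 (SE, adjusted p = 0.0332) and that of Evc2-201 rose by 5.51 ± 0.84 (adjusted p = 0.0497). The gene was weakly expressed, with a summed signal of 11.3 to 16 in sham and 19.8 to 27.4 after hepatectomy, a difference that did not pass (adjusted p = 0.12).

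Among genes of the cell cycle and centrosome, Tacc3, a spindle protein needed for microtubule stability in mitosis, lost the share of 1 minor isoform. Tacc3-001 held 16.9%, 20.6%, 5.19% and 19.0% in sham and 0.645%, 0.233%, 0.754% and 0.748% after hepatectomy. No hepatectomy library reached the lowest sham share, and the log2 ratio fell by 4.39 ± 0.53 (SE, adjusted p = 0.0289). The summed signal of Tacc3 rose from 17.4 to 29.4 in sham to 133 to 467 after hepatectomy, a log2 fold change of 3.30 ± 0.43 (SE, adjusted p = 0.00957). The signal of Tacc3-001 itself did not pass (log2 fold change -0.87, adjusted p = 0.374), whereas that of Tacc3-002, its main partner, rose by 3.38 on the log2 scale (adjusted p = 0.0225). The summed cell division markers were also higher in every hepatectomy library, and Tacc3 was the only one of the 25 genes whose level passed.

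Cep110, a centrosomal protein, moved more in Cre-positive livers. Cep110-013 held 39.9%, 42.4%, 46.1% and 49.0% in sham and 31.1%, 27.8%, 5.18% and 9.18% after hepatectomy. The Cre-positive hepatectomy libraries lay lowest, but the difference of responses did not pass (adjusted p = 0.0984). Averaged, the log2 ratio fell by 2.11 ± 0.32 (SE, adjusted p = 0.0497). Dyrk1b encodes a kinase linked to quiescence. Dyrk1b-201 held 10.5%, 10.2%, 0.893% and 0.0639% in sham and 35.2%, 25.7%, 21.4% and 40.7% after hepatectomy, with no overlap (adjusted p = 0.0401). Lin54, a DNA-binding subunit of the complex that represses and then activates cell cycle genes, gained Lin54-201. Its share was 0.353% to 0.817% in sham, 33.3% and 25.6% in Cre-negative hepatectomy, and 7.01% and 3.29% in Cre-positive hepatectomy (adjusted p = 0.0381).

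In the translation machinery, Rplp0, a protein of the ribosomal stalk, had a lower share of 1 of its 4 listed isoforms. Rplp0-002 held 13.9%, 21.6%, 23.1% and 14.7% in sham and 1.11%, 4.39%, 0.0453% and 0.00415% after hepatectomy. All hepatectomy libraries lay below all sham libraries, and the averaged log2 ratio fell by 5.85 ± 0.56 (SE, adjusted p = 0.0194). Within a single genotype the fall did not pass (adjusted p = 0.0641 in Cre-negative and 0.126 in Cre-positive livers). The summed signal of Rplp0 was 2225 to 2392 in sham and 1854 to 3231 after hepatectomy, and its change did not pass (adjusted p = 0.576). Ribosomal protein genes have near-identical processed copies in the genome, so the split of reads is uncertain. Nsun5, a methyltransferase of ribosomal RNA, lost Nsun5-007. Its share was 16.1% to 26.1% in sham, under 0.5% in both Cre-negative hepatectomy libraries, and 13% and 15.3% in the Cre-positive ones (adjusted p = 0.0308).

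Eif4g1, the scaffold of the complex that recruits ribosomes to capped messages, had the smallest averaged adjusted p among the 25. Eif4g1-004 held 25.7%, 21.6%, 20.5% and 20% in sham and 0.00948%, 0.00683%, 19.2% and 13.6% after hepatectomy. Both Cre-negative hepatectomy libraries were near 0, while the Cre-positive ones lay just below sham. The averaged log2 ratio fell by 4.76 ± 0.27 (SE, adjusted p = 0.0132) and the response differed between genotypes (adjusted p = 0.0103). Its partner Eif4g1-005 held 1.44% to 2.45% in sham, 55.1% and 23.3% in Cre-negative hepatectomy and 1.13% and 2.07% in Cre-positive hepatectomy libraries, and did not pass (adjusted p = 0.11).

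In a surface protein, a heme-binding protein and a nucleotidase, shares also did not overlap between the 4 hepatectomy and 4 sham libraries. Adam23 is a membrane protein of the ADAM family without protease activity. Adam23-001 held 23.8%, 43.4%, 22.8% and 18.5% in sham and 4.95%, 0.587%, under 0.5% and 0.536% after hepatectomy (adjusted p = 0.028). Cyb5d2, a heme-binding protein, gained Cyb5d2-002. Its sham shares were 10.7%, 19.5% and, in both Cre-positive libraries, under 0.5%, and its hepatectomy shares were 51.9%, 34.9%, 34.9% and 40.4% (adjusted p = 0.0353). Within a single genotype Cyb5d2-002 did not pass (adjusted p = 0.112 in Cre-negative and 0.26 in Cre-positive livers). Nt5c3, a nucleotidase that acts on pyrimidine monophosphates, gained Nt5c3-003, from 2.49% to 7.4% in sham to 36.8%, 23.3%, 15.4% and 10.7% (adjusted p = 0.0476). D14Ertd449e-201 held 8.68%, 15.7%, 8.49% and 20.9% in sham and under 1% in all 4 hepatectomy libraries (adjusted p = 0.0275). For these 4 genes the difference of responses between genotypes did not pass (adjusted p = 0.557 for Adam23, 0.167 for Cyb5d2, 0.755 for Nt5c3 and 0.713 for D14Ertd449e).

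For signalling and growth control, Nf2 stood out by role. It encodes merlin, a tumour suppressor upstream of the Hippo pathway that restrains liver growth. Nf2-001 held 46.6%, 38.7%, 39.3% and 37.6% in sham and 1.82%, 0.675%, 25.1% and 30.7% after hepatectomy. All 4 hepatectomy libraries were below sham, the Cre-negative ones by far, and the log2 ratio fell by 3.04 ± 0.35 (SE, adjusted p = 0.0266). The response differed between genotypes (adjusted p = 0.0358). Nf2-201 held 4.07% to 10% in sham, 39.1% and 47.5% in Cre-negative hepatectomy, and 7.89% and 8.63% in Cre-positive hepatectomy libraries (adjusted p = 0.123). Numb, an inhibitor of Notch signalling, gained Numb-005, from at most 1.43% in sham to 30.8%, 20.7%, 1.80% and 2.80% after hepatectomy (adjusted p = 0.0385).

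Several genes of membrane traffic and the cytoskeleton lost an isoform mainly in Cre-negative livers. Vps53, a subunit of a tethering complex of the Golgi and endosomes, had 32.4% to 52.9% of Vps53-001 in sham, 0.659% and 0.139% in Cre-negative hepatectomy, and 24.7% and 20.8% in Cre-positive hepatectomy libraries (adjusted p = 0.0217). Pi4kb, a phosphatidylinositol 4-kinase of the Golgi, had 16.1% to 26.1% of Pi4kb-002 in sham, under 0.5% in Cre-negative hepatectomy, and 15.6% and 11.9% in Cre-positive hepatectomy libraries (adjusted p = 0.0241). Myo18a, an unconventional myosin, had 20.8% to 26.8% of Myo18a-203 in sham, 0.251% and 0.0153% in Cre-negative hepatectomy, and 16.6% and 18% in Cre-positive hepatectomy libraries (adjusted p = 0.0217). In these 3 genes the response differed between genotypes (adjusted p = 0.0411, 0.0283 and 0.0216). Gripap1, a protein of recycling endosomes, went the other way: Gripap1-201 was under 0.5% in sham and in Cre-positive hepatectomy libraries and at 35.7% and 13.3% in Cre-negative hepatectomy ones.

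Among genes of RNA turnover and chromatin, Cnot2, a subunit of the CCR4-NOT deadenylase complex, gained Cnot2-004. Its share was at most 1.81% in sham, 28.4% and 62.9% in Cre-negative hepatectomy, and 6.94% and 10.5% in Cre-positive hepatectomy libraries (adjusted p = 0.0361). Ssrp1, a subunit of the histone chaperone FACT, gained Ssrp1-202, from under 0.5% in all sham libraries to 48.4%, 39.4%, 3.86% and 0.172% (adjusted p = 0.0405). Its partner Ssrp1-002 held 14.8% to 23.0% in sham and was under 0.5% in Cre-negative hepatectomy but at 21.2% and 17.1% in Cre-positive hepatectomy libraries (adjusted p = 0.0132). The Cre-positive libraries thus lay close to sham for both isoforms.

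Metabolic and immune genes completed the 25. Acox2, a peroxisomal oxidase of branched chains and of bile acid precursors, gained share of its leading isoform Acox2-002, from 62.3% to 65.8% in sham to 92.7%, 90.6%, 71.5% and 71.5% (adjusted p = 0.0497). Ilvbl, an enzyme of the thiamine-dependent family, gained Ilvbl-201, from 69.9% to 79.1% to 99.7%, 99.8%, 80.6% and 85.7% (adjusted p = 0.0214). Nln, the peptidase neurolysin with 2 listed isoforms, lost Nln-202, from 94.0% to 95.3% in sham to 54.6%, 68.3%, 86.1% and 87.3% (adjusted p = 0.0399). In these 3 genes every hepatectomy library lay outside the sham range, and the Cre-negative ones lay farther out. H2-T24, a nonclassical class I histocompatibility gene, gained H2-T24-201, from at most 0.243% in sham to 83.3%, 86.4%, 1.53% and 0.861% (adjusted p = 0.0214). Trim26, a ubiquitin ligase, lost Trim26-004, from 25.2% to 33.9% in sham to 1.54%, 0.544%, 25.1% and 22.1% (adjusted p = 0.0444). Genes of the histocompatibility region have near-identical neighbours, and the split of reads for H2-T24 is uncertain.

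The other switches of the leading isoform did not all pass the test. Cyp4a31 encodes a cytochrome P450 of the family that hydroxylates fatty acids. Cyp4a31-001 held 21.4%, 37.7%, 19.7% and 35.9% in sham and 77.6%, 68.9%, 45.5% and 40.1% after hepatectomy (adjusted p = 0.149). Its shares did not overlap, and the gene's summed signal rose from 40.5 to 99.7 in sham to 119 to 663 (log2 fold change 2.20 ± 0.30 SE, adjusted p = 0.0109). Near-identical Cyp4a neighbours make the split of reads uncertain. Cep250, a protein that links the centrioles, had Cep250-202 at 32.3%, 1.32%, 0.106% and 19.4% in sham and 57.1%, 64.6%, 50.2% and 42.7% after hepatectomy (adjusted p = 0.212). Ubxn6, a cofactor of the p97 ATPase, had Ubxn6-001 at 34.1% to 38.5% in sham and 48.3% to 62.3% after hepatectomy (adjusted p = 0.145). For 4833439L19Rik, Utp23 and 1600014C10Rik the adjusted p-values of the isoform that took the lead were 0.0917, 0.405 and 0.295. Evc2 was the only switch of the 7 whose incoming isoform passed.

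Among genes with a called isoform share, a called gene level was about as frequent as among all member genes. Of the 193 genes with a called share, 7 (3.63%) also had a called gene level, beside 282 of all 7926 member genes (3.56%) and 4.49% of all genes tested in the series. The log2 fold change of the gene level was within 0.5 in either direction for 132 of the 193. Of the 157 isoforms whose share fell, the isoform's own level was also called lower (past the threshold) in 132. Of the 59 whose share rose, the isoform's level was also called higher in 35. Over all 36294 member isoforms with a mean signal of at least 1, 190 levels were called higher and 412 lower. Of all isoforms tested, 1.72% were called in either direction, 0.811% higher and 0.906% lower. The numbers of member genes and of member isoforms with a called level changed whenever a single library was left out. The other counts of this paragraph were not recomputed in that way.

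Within Cre-negative livers more isoforms were called. A total of 1698 member isoforms in 1265 genes passed, 659 higher and 1039 lower, which is 8.08% of those tested beside 6.28% of all isoforms tested (2.4% higher and 3.88% lower). The count was 154 and 336 without Cre-negative sham replicates 1 and 2, 566 and 565 without Cre-positive sham replicates 1 and 2, and 858 and 883 without Cre-positive hepatectomy replicates 1 and 2. Omitting Cre-negative hepatectomy replicate 1 gave 1502 and omitting replicate 2 gave 6860. With only the 4 Cre-negative libraries in the fit it was 0, with 4568 at an unadjusted p under 0.05. The sources used here do not state whether the Cre-negative hepatectomy libraries were quantified with the same annotation and settings as the others, so a difference of the livers and one of the quantification cannot be told apart. Eif4g1, Acox2, Aplp2, Pigr and Immt are the 5 named for the smallest adjusted p, 0.00151, which other genes shared.

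For each of these 5, an isoform was near 0 in both Cre-negative hepatectomy libraries. Acox2-004 held 10.7% to 14.7% in sham, under 0.5% in Cre-negative hepatectomy, and 14.9% and 11.4% in Cre-positive hepatectomy libraries. Aplp2-206, of a homologue of the amyloid precursor protein, held 15% to 20.1% in sham, under 0.5% in Cre-negative hepatectomy, and 17.7% and 21.6% in Cre-positive hepatectomy libraries. Immt-001, of a scaffold of mitochondrial cristae, held 15.8% to 22.8% in sham, 0.0432% and 0.0438% in Cre-negative hepatectomy, and 25.2% and 31.6% in Cre-positive hepatectomy libraries. Pigr encodes the receptor that carries immunoglobulin A into bile. Its isoform Pigr-003 held 4.81% to 6.41% in sham and 5.75% and 5.58% in Cre-positive hepatectomy libraries but 0.00632% and 0.00143% in Cre-negative hepatectomy libraries, while Pigr-001 took up the difference. For Acox2-004, Aplp2-206, Immt-001 and Pigr-003, the Cre-positive hepatectomy libraries lay within the sham range or on the other side of it, and for Eif4g1-004 they lay just below it. Of the 1698 isoforms, 465 had both Cre-positive hepatectomy shares within the sham range, and 555 changed in the same direction in Cre-positive livers.

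Within Cre-positive livers 0 member isoforms passed in limma, beside 0% of all isoforms tested, and 1059 (5.04%) had an unadjusted p under 0.05. The lowest adjusted p was 0.126. The median absolute difference of share was 4.10 percentage points in Cre-positive and 9.50 points in Cre-negative livers over the same 21013 isoforms, and 5.01 points averaged over both. Rplp0-002 was among the isoforms with the lowest p in Cre-positive livers, as were Hdac7-002 and Pnkd-001. A share that did not pass here is not shown to be unchanged, since 2 libraries were compared with 2.

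**Figure D4:**
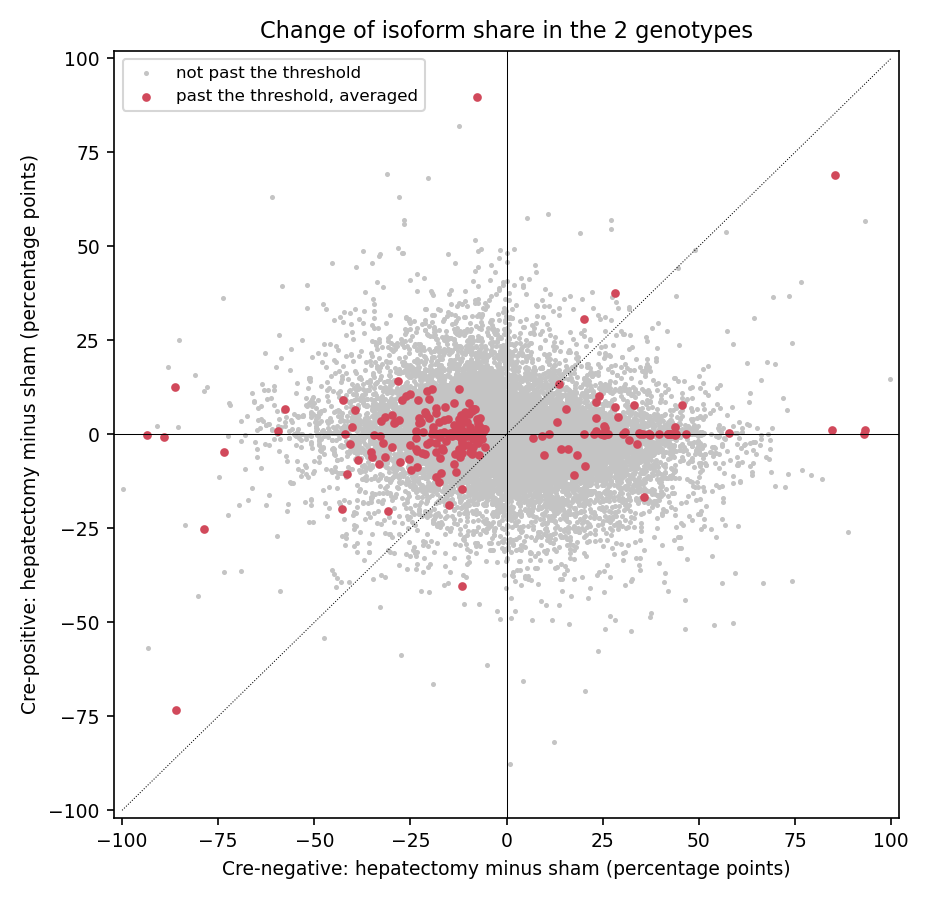
Difference of mean share, hepatectomy minus sham, in percentage points in Cre-negative livers (horizontal axis) and in Cre-positive livers (vertical axis) for the 21013 member isoforms tested (grey), with the 216 that passed averaged over genotypes in red. Red points spread more along the horizontal than along the vertical axis, and 210 of the 216 changed more in Cre-negative livers.

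The difference of the response between genotypes was tested directly. It passed for 424 member isoforms in 357 genes (beside 1.49% of all isoforms tested), and in 371 of the 424 the change was larger in Cre-negative livers. Besides Eif4g1, Immt and Acox2, the smallest adjusted p (0.0103 for each) included Kdm1a and Vdac1. Kdm1a encodes a histone demethylase. Kdm1a-001 held 0.149%, 0.416%, 12% and 7.35% in sham and 45.2%, 43.0%, 0.0201% and 0.423% after hepatectomy, so that the order of the genotypes was opposite in the operations. Vdac1, the main channel of the outer mitochondrial membrane, had 22% to 34.3% of Vdac1-005 in sham, 0.0103% and 0.0285% in Cre-negative hepatectomy, and 30.8% and 43.2% in Cre-positive hepatectomy libraries. The count was 0 without any one sham library or Cre-positive hepatectomy replicate 2, and 57 without Cre-positive hepatectomy replicate 1. It was 845 and 5371 without Cre-negative hepatectomy replicates 1 and 2.

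Averaged over operations, the genotypes differed in 351 member isoforms of 303 genes (beside 1.22% of all isoforms tested, 0.889% higher and 0.335% lower), 255 with a higher and 96 with a lower share in Cre-positive livers. Aplp2-203 differed in both operations. It held 1.94% and 4.37% in Cre-negative sham and 21.7% and 12.4% in Cre-negative hepatectomy libraries, and under 0.5% in all 4 Cre-positive libraries (log2 ratio lower in Cre-positive, -7.21, adjusted p = 0.0103). For Wwp2, a ubiquitin ligase, the difference lay mainly in the hepatectomy libraries. Wwp2-201 held 42.5% to 45.8% in sham, 0.391% and 0.277% in Cre-negative hepatectomy, and 52.7% and 56.9% in Cre-positive hepatectomy libraries (adjusted p = 0.0103). Eif4g1, Acox2 and Immt were the others of the 5 named for this contrast. The count was 0 without any one sham or any one Cre-positive hepatectomy library. It was 773 when Cre-negative hepatectomy replicate 1 was omitted and 5252 when replicate 2 was.

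Gene lists by function are described by their counts beside those of all 6933 member genes tested, of which 193 had an isoform past the threshold averaged, 18.2% had one in Cre-negative livers and 12.5% had one without overlap between the 4 hepatectomy and 4 sham libraries. No list had a gene past the threshold in Cre-positive livers.

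**Figure D5:**
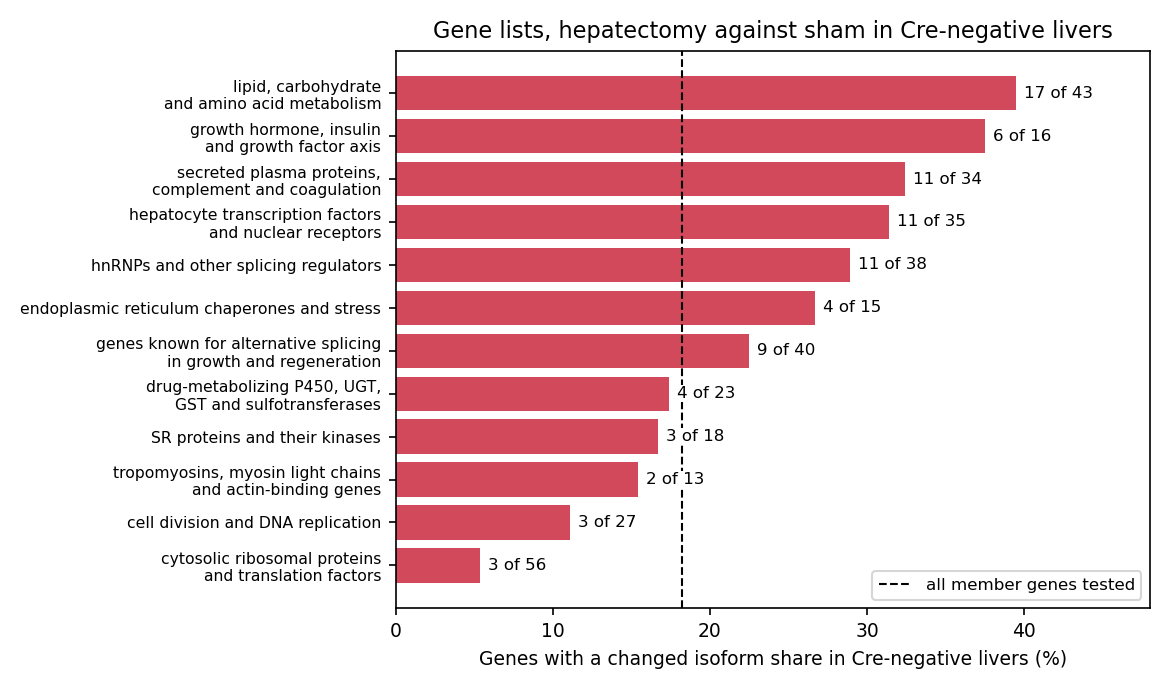
Percent of tested genes in each list with an isoform share past the threshold in Cre-negative livers (horizontal axis, bars starting at 0), with the counts beside the bars. The dashed line marks all member genes at 18.2%, and the bars run from 5.36% for ribosomal proteins and translation factors to 39.5% for lipid, carbohydrate and amino acid metabolism.

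Regulators of splicing are themselves spliced in alternative ways. Of 18 SR proteins and SR protein kinases tested, 2 passed averaged and 3 in Cre-negative livers (16.7%, near the share of all member genes). Srsf1, an SR protein that promotes exon inclusion, had Srsf1-006 at 15.9% to 22.3% in sham and at 0.0178%, 0.0833%, 24.9% and 37.3% after hepatectomy. Srrm1, a coactivator of splicing, had Srrm1-008 at 5.73% to 10.3% in sham, under 0.5% in Cre-negative hepatectomy, and 9.33% and 6.88% in Cre-positive hepatectomy libraries. For both, the averaged share fell (adjusted p = 0.0381 and 0.0275) although the Cre-positive libraries lay within or above the sham range.

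Of 38 hnRNPs and other regulators tested, 3 passed averaged and 11 in Cre-negative livers (28.9%). Tardbp encodes TDP-43, which binds its own message. Tardbp-204 held 34.1%, 36.8%, 19.6% and 33.5% in sham and 0.0236%, 0.0262%, 22.8% and 21.0% after hepatectomy (adjusted p = 0.0132). Tial1, a binder of U-rich sequence, had Tial1-005 under 0.5% in sham, at 32.2% and 18.5% in Cre-negative hepatectomy and under 0.5% in Cre-positive hepatectomy libraries (adjusted p = 0.0208). Rbm10-003 held 6.78% to 9.40% in sham and 0.0854%, 0.00541%, 12.3% and 16% after hepatectomy (adjusted p = 0.0381). Gene levels of Tardbp, Srsf1, Srrm1, Tial1 and Rbm10 did not pass (adjusted p = 0.972, 0.83, 0.897, 0.317 and 0.234).

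Of 40 genes known for alternative splicing in growth and regeneration, 6 passed averaged, 9 in Cre-negative livers (22.5%) and 10 had an isoform without overlap (25%). Lpin1, a phosphatidate phosphatase and coactivator with alternative isoforms, had Lpin1-201 at 0.00692% or lower in sham, at 35.0% and 48.9% in Cre-negative hepatectomy, and under 0.5% in both Cre-positive hepatectomy libraries (adjusted p = 0.0132). The summed signal of Lpin1 fell in the averaged comparison (log2 fold change -1.46 ± 0.27 SE, adjusted p = 0.0329), from 5417 to 7262 in sham to 1425 to 2951. Map3k7, the kinase TAK1, had Map3k7-002 under 0.5% in sham and in Cre-positive hepatectomy, and at 31.3% and 14.5% in Cre-negative hepatectomy libraries (adjusted p = 0.0378). Esrp2, a splicing regulator of hepatocytes, had a summed signal of 558 to 673 in sham and 543 to 928 after hepatectomy, and the ranges overlapped.

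Cytoskeletal and nuclear receptor lists gave 1 gene each averaged. Of 13 tropomyosins, myosin light chains and actin-binding genes tested, 2 passed in Cre-negative livers. Actn4, which crosslinks actin, had Actn4-003 at 6.18% to 7.4% in sham and 0.185%, 0.357%, 8.37% and 8.05% after hepatectomy (adjusted p = 0.0353). Of 35 hepatocyte transcription factors and nuclear receptors, 11 passed in Cre-negative livers (31.4%). Rxra, the shared partner of many nuclear receptors, had Rxra-201 at 5.20% to 9.16% in sham and 0.0590%, 0.0182%, 10.6% and 13.6% after hepatectomy (adjusted p = 0.0298), while its leading isoform Rxra-001 went from 81.4% to 88.0% in sham to 99.4%, 99.4%, 80.2% and 72.8% after hepatectomy (adjusted p = 0.0351).

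Of 16 genes of the growth hormone, insulin and growth factor axis, 1 passed averaged and 6 in Cre-negative livers (37.5%). Egfr, the receptor for epidermal growth factor and a driver of regeneration, had Egfr-201 at 24.7%, 21.4%, 17.1% and 27.7% in sham and 0.0235%, 0.00834%, 21.0% and 42.2% after hepatectomy. The averaged log2 ratio fell by 4.43 ± 0.42 (SE, adjusted p = 0.0195), and the Cre-positive libraries lay within or above sham. The summed signal of Egfr was 6963 to 9464 in sham, 3438 and 4212 in Cre-negative hepatectomy, and 8460 and 6384 in Cre-positive hepatectomy libraries, and did not pass (adjusted p = 0.129).

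Among the 12 lists, that of lipid, carbohydrate and amino acid metabolism had the largest share of calls in Cre-negative livers. Of its 43 genes tested, 3 passed averaged and 17 in Cre-negative livers (39.5%), and 5 had an isoform without overlap. Lpin2, a second phosphatidate phosphatase, had Lpin2-005 at 6.56% to 15.8% in sham and 0.0398%, 0.0132%, 10.7% and 14.8% after hepatectomy (adjusted p = 0.0217). Elovl5, an elongase of polyunsaturated fatty acids, had Elovl5-004 at 12.3% to 15.4% in sham and 0.0227%, 0.110%, 16.8% and 26.3% after hepatectomy (adjusted p = 0.0217). Hadhb, a subunit of the mitochondrial trifunctional protein, had Hadhb-005 at 10.4% to 14.3% in sham and 0.746%, 0.639%, 14.0% and 13.9% after hepatectomy (adjusted p = 0.033). In these 3 genes the Cre-positive hepatectomy libraries overlapped or exceeded sham.

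Of 23 drug-metabolizing genes tested, 0 passed averaged, 4 in Cre-negative livers (17.4%), and 6 had an isoform without overlap (26.1%). The most abundant was Cyp2e1, which oxidizes ethanol and small solvents. Cyp2e1-202 held 16.5%, 22.6%, 20.3% and 20.8% in sham and 49.4%, 35.1%, 19.7% and 17.9% after hepatectomy (adjusted p = 0.343). Gstp1-201, of a glutathione transferase, held 89.7% or more in sham and 28.7% and 85.7% in Cre-negative hepatectomy libraries (adjusted p = 0.764), so that 1 library was far from the rest. Of 34 genes of plasma proteins, complement and coagulation, 0 passed averaged, 11 in Cre-negative livers (32.4%) and 7 had an isoform without overlap (20.6%). C3-002, of the central complement protein, held 7.53% to 9.56% in sham and 13.8%, 18.6%, 9.72% and 10.4% after hepatectomy, all above sham, and did not pass (adjusted p = 0.352). Apoe-007 held 20.7% to 31.3% in sham and 21.3% to 26.6% after hepatectomy (adjusted p = 0.709).

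Ribosomal proteins and translation factors had the smallest share of calls in Cre-negative livers. Of 56 genes tested, 3 passed averaged and 3 in Cre-negative livers (5.36%), and the median over genes of the largest change in Cre-negative livers was 7.82 percentage points against 17.0 for all member genes. An isoform without overlap was found in 10 of the 56 (17.9%). Eif4a2, a helicase of translation initiation, had Eif4a2-006 under 0.5% in sham and Cre-positive hepatectomy libraries and at 35.0% and 17.5% in Cre-negative hepatectomy libraries (adjusted p = 0.0132). Of 27 cell division and replication genes, 1 passed averaged and 3 in Cre-negative livers (11.1%). Cdk4, a kinase of the G1 phase, had Cdk4-004 at 21.9% to 29.4% in sham and 0.191%, 0.680%, 28.5% and 31.5% after hepatectomy (adjusted p = 0.0353). Of 15 chaperone and stress genes, 1 passed averaged and 4 in Cre-negative livers (26.7%). Hsph1, a heat shock protein, had Hsph1-005 at 7.36% to 13.5% in sham and 0.00850%, 0.00256%, 7.75% and 7.11% after hepatectomy (adjusted p = 0.0214).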

How the data were processed

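Whole liver RNA was sequenced in 8 libraries, 2 in each of 4 groups, which were taken from the sample titles. The values deposited by the authors are a normalized signal per isoform. TopHat, Cufflinks and the builds mm9 and NCBIM37 are named per the submitters' processing notes, and their versions and the normalization are not given in the sources used here. At rank 10000, the values of the 8 libraries lay between 66.6 and 70.0, so their distributions were nearly equal. Of 63481 isoform values of 100 or more, 15.1% recurred exactly at another isoform in another library. Isoforms added up to their gene's signal with a largest difference of 7.4e-05. Counts and depth are unknown, so no counting interval is given. No column (0) belonged to other samples.

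Shares were computed from the deposited signal. For tests, the log2 ratio (isoform + 1)/(rest of the gene + 1), with a pseudocount of 1 that understates changes at low signal, was fitted with limma 3.58.1 (R 4.3.3), as 4 group means with a shared spread (4 residual and 2.61 prior degrees of freedom) moderated along gene signal. The fit covered isoforms with a mean share of 5% to 95% in genes with a mean summed signal of at least 1 and above 0 in every library, with Benjamini-Hochberg adjustment, two-sided. The share fit took the spread as equal in all groups, which the distances between replicates did not show. Replicates lay 13.5% apart in isoform usage for Cre-negative hepatectomy, but 7.77% for Cre-negative sham and 6.05% for Cre-positive sham. The size of the effect on the p-values was not tested. Levels were fitted on log2(signal + 1) for a mean signal of at least 1. Per-library summaries used exact permutation tests (scipy 1.17.1, Python 3.11.15). The share test was also run on simulated data. Those data had the same spread in all libraries and the same changes in both genotypes, unlike the deposited values. That run therefore does not bear on the calls given here.

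Named were the 25 genes with the largest difference of mean share among called isoforms without overlap, the switches of the leading isoform, up to 3 genes with the smallest adjusted p per list (otherwise up to 2 of the highest signal) and up to 5 genes per other contrast. Other genes were named after their values were seen. The members, the 12 lists and the tests were chosen with earlier results of these data known. Isoform names were not matched to the reference, whose annotation and build differ, so no sequence or coordinate is given. Alternatives tried were other pseudocounts, the untransformed share, other filters, scalings and priors, and leaving out libraries. One marker gene is not reported here, and its list is given by 3 other members.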

Additional observations from a re-analysis of the deposited data

Results flagged for a closer look

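The response to hepatectomy differed between genotypes, by limma's test of that difference, for 424 member isoforms. Values below are the Cre-positive minus the Cre-negative response of the log2 ratio. A positive value means that the share fell more, or rose less, in Cre-negative livers. All 32 named isoforms below passed an adjusted p of 0.05.

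Among the 25 genes with the largest share differences, the difference of responses was -7.17 for H2-T24-201, 5.66 for Vps53-001, 4.70 for Nf2-001, 4.43 for Trim26-004 and 6.89 for Myo18a-203. It was -4.89 for Ilvbl-201, 8.75 for Eif4g1-004, 5.11 for Pi4kb-002 and -5.96 for Gripap1-201. For splicing regulators it was 4.93 for Srrm1-008, 6.84 for Srsf1-006, 7.41 for Tardbp-204, -6.23 for Tial1-005 and 6.16 for Rbm10-003. For genes of growth and signalling it was -9.65 for Lpin1-201, -5.73 for Map3k7-002, 10.15 for Egfr-201 and 5.77 for Cdk4-004.

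For cytoskeletal, receptor and metabolic genes the difference was 4.53 for Actn4-003, 7.35 for Rxra-201, 8.44 for Lpin2-005, 7.68 for Elovl5-004, 4.62 for Hadhb-005 and 8.52 for Acox2-004. For translation and stress it was -8.34 for Eif4a2-006 and 5.32 for Hsph1-005. The remaining values were 8.42 for Aplp2-206, -8.14 for Pigr-001, 8.29 for Immt-001, 7.55 for Wwp2-201, -10.56 for Kdm1a-001 and 9.71 for Vdac1-005. The Cre-negative hepatectomy libraries, on which these differences turn, also stood apart in overall isoform usage, and its part in them was not tested.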

How the results depend on the processing

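Counts are of member isoforms past the threshold unless genes are named. The settings that leave out both libraries of a hepatectomy group were chosen after seeing the data. Averaged over genotypes, the 216 isoforms (193 genes) became 16 (11 genes) with untransformed shares, 472 (394 genes) without the share filter, 123 (114 genes) with one prior variance, 0 (0 genes) with operation means only, 0 (0 genes) without both Cre-negative hepatectomy libraries and 2138 (1554 genes) without both Cre-positive ones. Leaving out 1 library at a time gave 0 to 4221 isoforms (0 to 2534 genes) averaged, 154 to 6860 in Cre-negative livers, 0 to 5252 for genotype and 0 to 5371 for the difference of responses. In Cre-negative livers the count was 0 with only the 2 groups compared. In Cre-positive livers it was 1 without the share filter and 0 under all other settings tried. The genotype count of 351 became 191 with a pseudocount of 5 and 57 with untransformed shares, and the difference of responses, 424, became 224 with untransformed shares. Level counts without a filter on low values were 118 genes (leaving out 1 library, 26 to 2891) and 398 isoforms (0 to 3883).

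Without both Cre-negative hepatectomy libraries the comparison is of Cre-positive hepatectomy with all sham libraries. The sign of the log2 ratio was then positive for 10 isoforms that fell when averaged, and none of these 10 values passed (adjusted p 0.416 to 0.939): Srrm1-008 (0.0748), Srsf1-006 (0.89), Rbm10-003 (0.85), Actn4-003 (0.35), Rxra-201 (0.91), Egfr-201 (0.61), Lpin2-005 (0.45), Elovl5-004 (0.78), Hadhb-005 (0.28) and Cdk4-004 (0.40). Of the 41 named isoforms called averaged, 41 lost the call without any one sham library and 38 with untransformed shares. The cause of these changes was not tested. Depth is unknown and limits what can be said of isoforms near 0. No paired analysis was possible because the labels number the libraries 1 to 8 and give no replicate numbers.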

Other observations

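Several shares in the Cre-positive hepatectomy libraries lay outside those of the other 6 libraries, though none passed the threshold. They were chosen after their values were seen, among those with the smallest p against Cre-positive sham or against all 4 sham libraries, and are given as values. Library values are in the order Cre-negative replicates 1 and 2, then Cre-positive replicates 1 and 2. Ikbkg encodes the regulatory subunit of the kinase that activates NF-kB. Ikbkg-202 held 13.3%, 15.7%, 7.45% and 7.52% in sham, 23.5% and 13.5% in Cre-negative hepatectomy, and 0.294% and 0.192% in Cre-positive hepatectomy libraries. Hdac7, a class IIa histone deacetylase, had Hdac7-002 at 7.21%, 9.84%, 0.0026% and 0.218% in sham, 0.555% and 0.173% in Cre-negative hepatectomy, and 49.8% and 37.2% in Cre-positive hepatectomy libraries. Pnkd-001, with the smallest p against Cre-positive sham, held 4.32%, 6.27%, 25.3% and 10.6% in sham, 27.5% and 23.1% in Cre-negative hepatectomy, and under 0.5% in both Cre-positive hepatectomy libraries. Abcf2-201, taken from the comparison with all 4 sham libraries, held 58.3% to 86.0% in sham, 13.7% and 56.9% in Cre-negative hepatectomy, and 99.7% and 99.8% in Cre-positive hepatectomy libraries.

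In C1s, a protease of the first complement component, C1s-203 held 2.13% to 11.9% in sham, 14.2% and 18.9% in Cre-negative hepatectomy, and under 0.5% in both Cre-positive hepatectomy libraries. A different pattern was seen in Siglec1, where the Cre-positive sham libraries stood apart. Siglec1, a sialic acid receptor of macrophages, had Siglec1-201 at 76.3% and 89.4% in Cre-negative sham but 0.822% and 0.257% in Cre-positive sham libraries, and at 64.2% to 91.7% after hepatectomy.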
